A study of Mus musculus with 8 samples.

Results

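In the mouse genome (mm10), 4 blocks, chromosome 8 from 30 to 40 Mb, chromosome 12 from 20 to 30 Mb, chromosome 4 from 135 to 145 Mb and chromosome 3 from 120 to 125 Mb, were examined for DNA hydroxymethylation and for the RNA of their genes in adult oligodendrocyte progenitor cells (aOPC) and adult oligodendrocytes (aOL). They were picked because many of their CpG sites gave reads in only one of the populations, so the hydroxymethylation differences inside them describe the choice, and calls made on them are given as a description. The blocks held 25739 of the 1497075 CpG sites (counted per strand) with reads in any library, or 1.72%. Their deposited annotation named 264 genes. The 10 Mb on each side of every block, with 52911 sites, served as flanks.

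Cells were sorted by fluorescence from the brains of C57BL/6 mice at postnatal day 60. The aOPC came from Pdgfra-EGFP mice, in which a nuclear EGFP is expressed from the Pdgfra locus, and the aOL from Plp-EGFP mice, in which EGFP marks oligodendrocytes. All animals carried a reporter, and every aOPC and aOL library therefore came from different animals of different lines, so that population and reporter line cannot be told apart. DNA and RNA were taken from the same pellet. Each population had 2 libraries of reduced representation hydroxymethylation profiling (RRHP) and 2 of RNA-sequencing, numbered replicates 2 and 3 in the titles, and replicate 1 was not analysed here. Groups followed the titles, although the aOL RRHP samples carry a tissue label with the Pdgfra reporter, and pre-myelinating cells are named in the aOL RNA titles but myelinating ones in the protocol.

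5-hydroxymethylcytosine (5hmC) is the oxidized form of 5-methylcytosine made by the TET enzymes and is abundant in brain cells. RRHP cuts DNA at CCGG with MspI, joins adapters to the cut ends, and then adds glucose to 5hmC so that a marked CCGG at the junction resists another cut. A marked site keeps its adapter and gives reads, and a site without reads may be unmarked, absent from the DNA or not sampled. Each read also needs the next CCGG of the same molecule at a distance that can be amplified and sequenced.

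A site was called well-read when it had at least 10 counts in both libraries of one population, and one-population when it was well-read and had at most 3 counts in both libraries of the other. One-population sites are called aOPC-only or aOL-only, according to the population with the reads. The sequences of the one-population site with the highest counts in each block and direction are printed here to show what such a site looks like in the reference, with CCGG in capitals and each read from the cut into the fragment (GRCm38). For 3 of the aOPC-only sites the whole reference fragment fitted, with a CCGG at both ends, and the Cys1 site is given by its first 30 bases.
chromosome 8 aOPC-only, chr8:34970710-34970948, minus strand: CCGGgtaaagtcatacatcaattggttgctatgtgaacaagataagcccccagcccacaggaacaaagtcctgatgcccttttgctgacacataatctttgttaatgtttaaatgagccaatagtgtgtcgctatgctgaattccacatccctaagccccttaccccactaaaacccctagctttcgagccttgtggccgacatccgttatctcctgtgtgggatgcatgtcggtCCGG
Cys1 aOPC-only, chr12:24666228-24666257, plus strand: CCGGggatgcaacataaaccgagacctgtt
Kdm1a aOPC-only, chr4:136551971-136552055, minus strand: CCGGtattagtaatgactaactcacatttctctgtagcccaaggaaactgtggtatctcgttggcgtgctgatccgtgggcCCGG
chromosome 3 aOPC-only, chr3:122301728-122301959, plus strand: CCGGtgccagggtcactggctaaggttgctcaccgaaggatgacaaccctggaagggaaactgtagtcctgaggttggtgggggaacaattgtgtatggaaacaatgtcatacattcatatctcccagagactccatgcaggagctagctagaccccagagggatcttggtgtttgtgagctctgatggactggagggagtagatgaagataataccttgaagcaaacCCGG
For the aOL-only sites the next reference CCGG lay too far for the whole fragment, and the first 120 bases of each hold the single CCGG of the site itself.
Dctn6 aOL-only, chr8:34109065-34109184, minus strand: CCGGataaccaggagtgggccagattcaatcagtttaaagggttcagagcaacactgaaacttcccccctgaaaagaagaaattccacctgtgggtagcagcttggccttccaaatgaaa
Rnf144a aOL-only, chr12:26372949-26373068, plus strand: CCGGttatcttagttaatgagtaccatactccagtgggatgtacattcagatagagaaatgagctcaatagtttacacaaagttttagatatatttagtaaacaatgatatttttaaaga
Rap1gap aOL-only, chr4:137702233-137702352, plus strand: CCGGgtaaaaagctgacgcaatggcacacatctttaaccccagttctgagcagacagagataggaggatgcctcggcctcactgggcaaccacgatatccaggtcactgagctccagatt
Tmem56 aOL-only, chr3:121241952-121242071, minus strand: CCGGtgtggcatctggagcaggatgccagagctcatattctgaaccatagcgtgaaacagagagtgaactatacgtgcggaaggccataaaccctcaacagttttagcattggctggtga

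These sequences show the contrast that ran through the blocks. The reference fragments of the 4 aOPC-only sites were 235, 211, 81 and 228 bases long in the order printed. Those of the 4 aOL-only sites were 731, 1083, 835 and 1603 bases long.

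Counts at these sites were large in one population and near 0 in the other. The aOPC-only site of chromosome 8 (minus strand, 34970947) lies in no annotated gene of the deposited columns and inside the GENCODE gene Gm34368. In aOPC replicates 2 and 3 it had 111 and 253 counts, against 0 and 1 in aOL. The Cys1 site (plus strand of chromosome 12, 24666229), in an exon of one transcript and an intron of another, gave 120 and 154 counts in aOPC but 0 in both aOL libraries, which is at least 86.4-fold lower when 3 counts per library set the floor. Cys1 encodes cystin, a protein of the primary cilium.
The Kdm1a site (minus strand of chromosome 4, 136552054) gave 129 and 213 aOPC counts against 1 and 2 in aOL. It lies in an intron, and its fragment reaches into an exon of Kdm1a, which encodes a histone demethylase. The chromosome 3 site (plus strand, 122301729) lies in no gene of the deposited columns and within Bcar3 in GENCODE, and gave 86 and 223 aOPC counts against 1 and 0 in aOL. In all 4, every aOPC library was above every aOL library.

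In the opposite direction, the Dctn6 site (minus strand of chromosome 8, 34109183), in the promoter of a dynactin subunit gene, had 1 and 0 aOPC counts against 235 and 394 in aOL. Scaled to the library total (CPM), the aOL level was 14.7 ± 0.139 (SD, n = 2). The Rnf144a site (plus strand of chromosome 12, 26372950), in an intron of a ubiquitin ligase gene, had 0 and 0 against 223 and 316. The Rap1gap site (plus strand of chromosome 4, 137702234), in an intron of the gene for a Rap GTPase-activating protein, had 1 and 2 against 181 and 219. The Tmem56 site (minus strand of chromosome 3, 121242070), also intronic, had no count in aOPC against 111 and 104, which is at least 18.1-fold higher in aOL. Here too no library of one population reached the other. The next-ranked site of each block and direction behaved alike, with between 80 and 316 counts in the libraries with reads and at most 3 in the others, among them intronic sites of Asap2, Eif4g3, Igsf21 and D8Ertd82e.

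**Figure D1:**
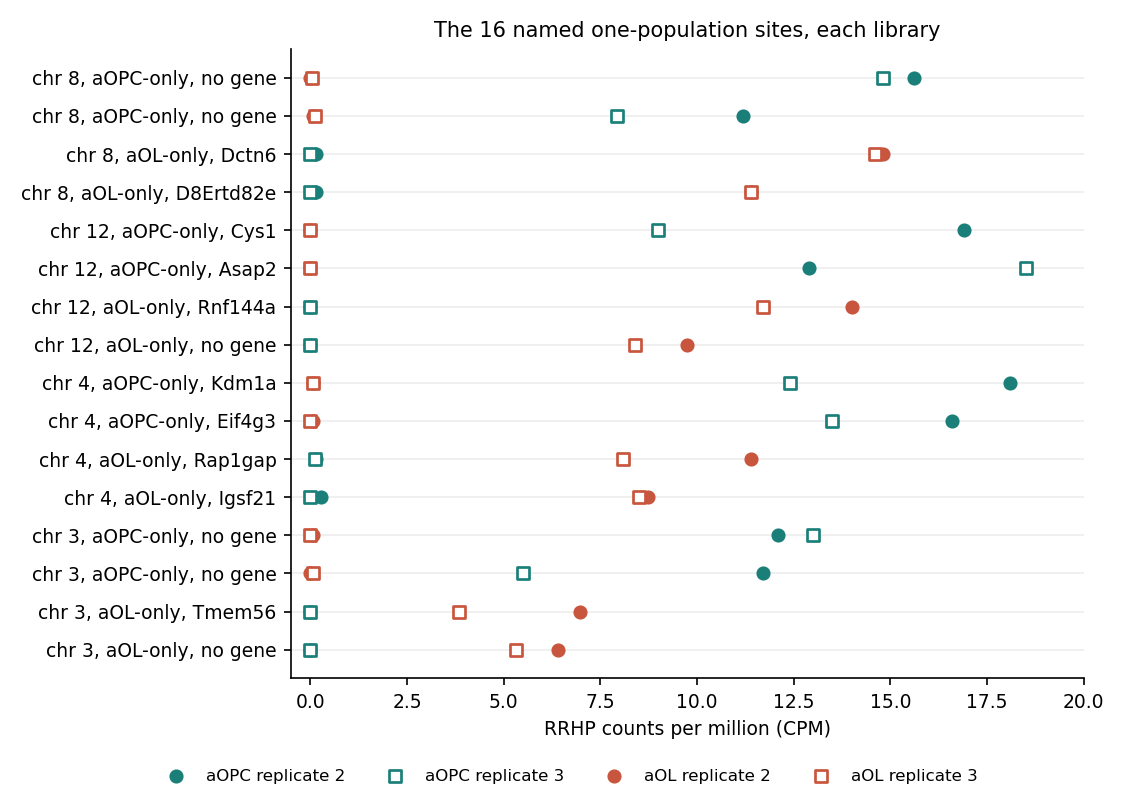
RRHP counts scaled to the library total (CPM, horizontal axis) at the 16 one-population sites named by rank, 2 for each block and direction (rows), in the 4 libraries (aOPC green, aOL red, replicate 2 filled, replicate 3 open). In every row the libraries of one population sit at or near 0 and those of the other between 3.84 and 18.5 CPM.

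Over all 4 blocks 7276 sites were well-read, and 1310 of them (18.0%, Wilson 95% interval 17.1 to 18.9, counting error only) were one-population, where 3.45% of the well-read sites of the whole genome were. The aOPC-only sites numbered 727 (9.99%, against 0.932% over the genome) and the aOL-only sites 583 (8.01%, against 2.51%). In the flanks 842 of 15203 well-read sites (5.54%) were one-population, 322 aOPC-only and 520 aOL-only. The balance of directions also changed with distance. aOPC-only sites made up 55.5% of the one-population sites in the blocks, 38.2% in the flanks and 22.9% in the rest of the genome. The rule used counts not scaled to library totals, which were 7113237 and 17121440 in aOPC against 15923775 and 27057859 in aOL. The part of depth in this balance was not tested. With 1.86% of all well-read sites, the blocks held 20% of all aOPC-only sites and 5.93% of all aOL-only sites. Since the blocks were chosen on these counts, the shares are a description. Without aOPC replicate 3 the share was 30.4% in the blocks and 20.4% in the flanks, and without aOPC replicate 2 it was 24.4% and 7.54%, where 1 library in place of 2 also loosens the rule. Without aOL replicates 2 and 3 it was 18.7% and 18.8% in the blocks and 8.57% and 6.28% in the flanks. The genome outside blocks and flanks went from 3.07% to 18.2% without aOPC replicate 3, 3.90% without aOPC replicate 2, and 7.10% and 3.70% without aOL replicates 2 and 3.

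The blocks differed in how they were filled. On chromosome 8, 145 aOPC-only and 118 aOL-only sites made up 23.0% of 1142 well-read sites, against 4.49% in its flanks. All 10 bins of 1 Mb lay between 13.6% and 36.4%, and the excess went on into the next 1 Mb after the block (21.0%). On chromosome 3, 141 of 649 well-read sites were one-population (21.7%, flanks 6.29%), but they sat in the middle. The bins from 121 to 122 Mb and from 122 to 123 Mb held 26.3% and 35.5%, while the last bin, from 124 to 125 Mb, had none among 51 well-read sites. Outside the block, the bins from 114 to 115 Mb (21.6%), 115 to 116 Mb (20.4%) and 130 to 131 Mb (10.9%) were also crowded.

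On chromosome 12, 209 of 1129 well-read sites were one-population (18.5%, flanks 8.26%). The crowding there was broken by a gap from 22 to 24 Mb (6.56% and 6.25%), extended before the block to 15 Mb and after it to 31 Mb (19.4% in the last bin), and was seen again from 35 to 36 Mb (22.8%) and, with 36 well-read sites, from 37 to 38 Mb (11.1%). On chromosome 4, the block richest in genes, 697 of 4356 well-read sites were one-population (16%). Its first bin, from 135 to 136 Mb, had 13 aOL-only and 0 aOPC-only sites among 550, and the share rose to 25.6% from 140 to 141 Mb. The 2 flanks of chromosome 4 were unlike each other, with 109 of 4124 sites (2.64%) before the block and 302 of 3944 (7.66%) after it, where the bins from 147 to 148 Mb and 148 to 149 Mb held 19.0% and 16.3%. Before the block, 3823 well-read sites in a row, over 9.50 Mb from 125005211 to 134507729, held no aOPC-only site. A comparable run of 1337 sites over 8.47 Mb followed the chromosome 8 block, from 41441700 to 49916475.

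**Figure D2:**
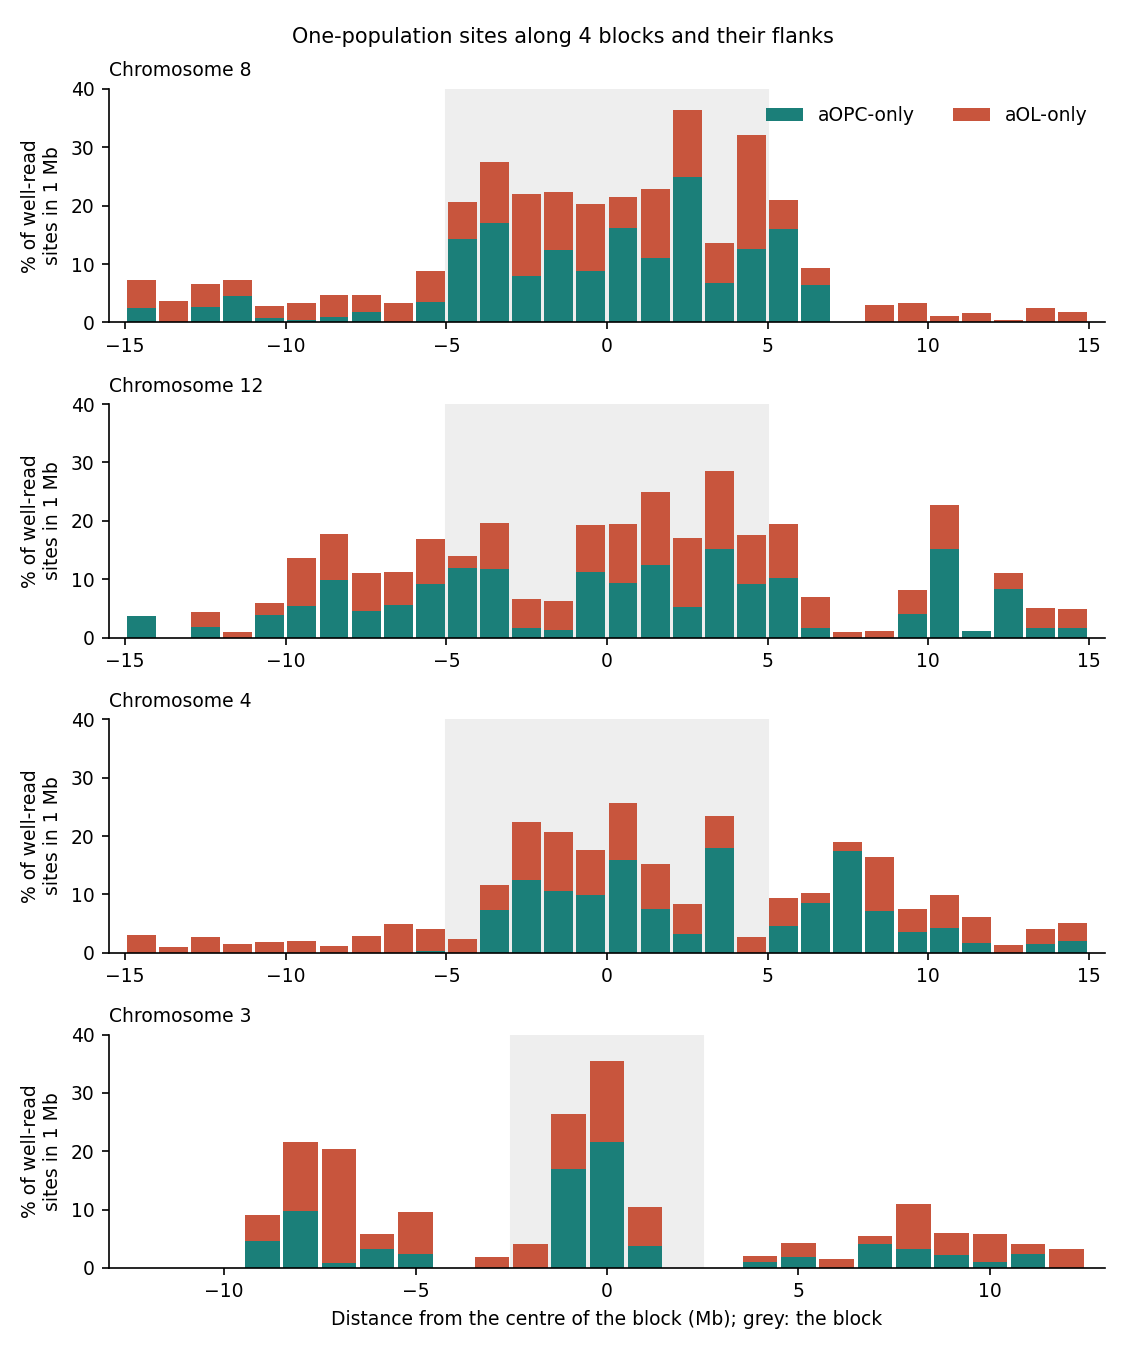
Share of well-read sites that were aOPC-only (green) or aOL-only (red, stacked) in each 1 Mb bin, against the distance of the bin from the centre of its block, 1 panel a chromosome, with the block in grey. The chromosome 8 block is filled throughout (13.6% to 36.4%), the chromosome 3 block only in its middle (up to 35.5%), and the flank before the chromosome 4 block holds almost no aOPC-only site (2 of 4124).

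Within a block the directions were mixed. On chromosome 8 neighbouring one-population sites had the same direction in 145 of 262 pairs (55.3%), and on chromosomes 12, 4 and 3 in 59.6%, 57.8% and 58.6%. The median distance between neighbours ranged from 5.04 kb on chromosome 4 to 20.4 kb on chromosome 12. At the scale of single fragments the direction was kept. A fragment has a site at each end, and of the 388 aOPC-only sites whose other end was well-read, 260 (67.0%) had an aOPC-only partner there, 1 had an aOL-only partner and 127 had one read in both populations. Of the 79 aOL-only sites with a well-read other end, 42 (53.2%) had an aOL-only partner and 1 an aOPC-only partner. Across the cut, on the opposite strand of the same CCGG, aOPC-only sites had 66 partners of the same and 9 of the other direction among 142 well-read ones, and aOL-only sites 16 and 9 among 112. For 298 of the 583 aOL-only sites the other end of the reference fragment had no read in any library, against 11 of the 727 aOPC-only sites.

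The length of the reference fragment, which the rule did not use, was the feature that most separated the directions. All sites on these 4 chromosomes lay at a CCGG of the reference. The median distance to the next CCGG on the read side was 150 bases for aOPC-only sites of the blocks, 724 bases for aOL-only sites and 156 bases for the other well-read sites. Of the aOPC-only sites 9.08% had a fragment over 300 bases and 1 of 727 one over 450 bases. Of the aOL-only sites 90.2% were over 300 bases and 65.7% over 450 bases, and of the other well-read sites 13.5% and 2.98%. The lengths also separated the directions outside the blocks. Of the aOL-only sites 86.9% in the flanks and 90.2% in the rest of the same chromosomes had fragments over 300 bases, and of the aOPC-only sites 7.76% and 7.48%. Fragments over 450 bases made up 42.5% and 29.1% of the aOL-only sites there. The order held in each block, with aOL-only medians of 1147 (chromosome 8), 959 (chromosome 12), 558 (chromosome 4) and 879 bases (chromosome 3) and aOPC-only medians between 139 and 180 bases.

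Read the other way, length and block membership went together. Of the 216 well-read block sites on fragments over 450 and up to 1000 bases, 71.3% were aOL-only, against 39.2% of 237 in the flanks and 15.5% of 1002 in the rest of the same chromosomes. On fragments over 1000 bases the shares were 66.2%, 32.5% and 15.1%. On fragments over 300 and up to 450 bases they were nearer to each other, at 17.1%, 12% and 12.6%. On fragments of up to 300 bases aOL-only sites were rare everywhere, at most 1.25% in any of these classes, and aOPC-only sites made up 11.4%, 10.7% and 11.9% of the 3 shortest classes in the blocks but 2.24%, 2.23% and 2.64% in the flanks. Whether the mice of the 2 lines differed at CCGG sites of these blocks was not tested, since the tables hold counts at reference CCGG positions and no read sequence.

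**Figure D3:**
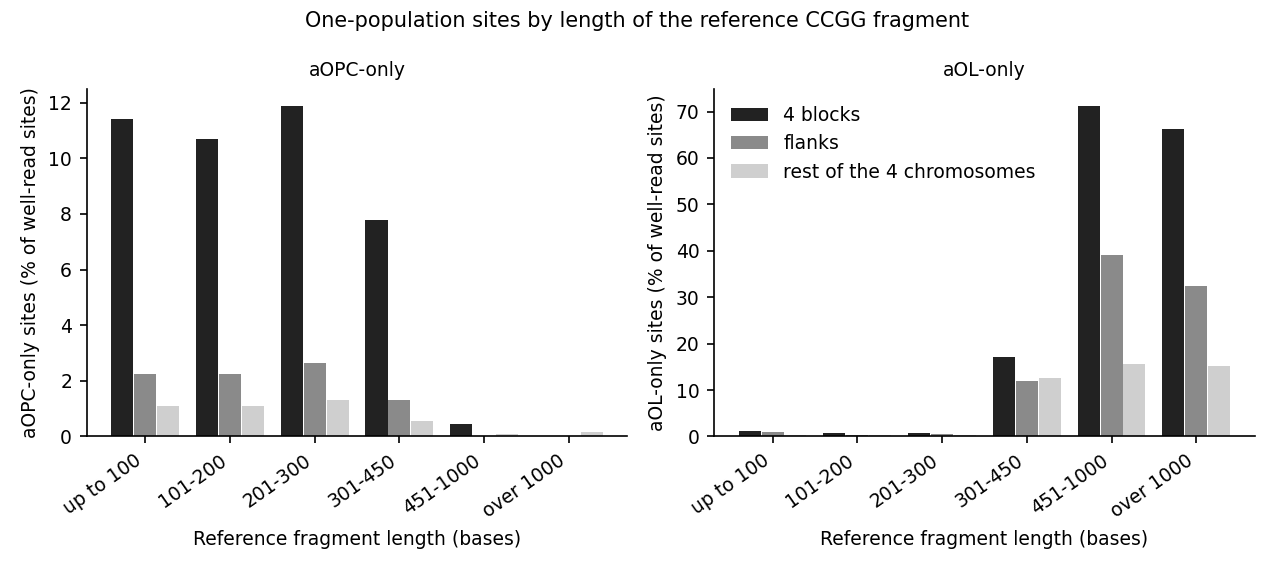
Percentage of well-read sites that were aOPC-only (left) or aOL-only (right) by the length of the reference fragment between neighbouring CCGG sites, in the 4 blocks, in the flanks and in the rest of the 4 chromosomes. aOPC-only sites are rare over 450 bases and aOL-only sites rare up to 300 bases, and aOL-only sites reach 71.3% in the blocks in the class over 450 and up to 1000 bases.

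Position in genes separated the directions little. Of the aOPC-only, aOL-only and other well-read sites of the blocks, 47.2%, 42.0% and 38.0% were intronic, 4.81%, 8.23% and 13.0% exonic, and 2.61%, 2.92% and 3.89% in promoters. CpG islands held 5, 6 and 58 sites. The 40 bases on the read side had a median GC content of 50.0%, 50.0% and 52.5%. The blocks were not short of sites either, with 63.3% to 74.9% of their reference CCGG having reads, against 62.6% to 74.9% in the flanks.

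Counts at one-population sites were of the same order as elsewhere. The aOPC-only sites had median counts of 17 and 46 in aOPC replicates 2 and 3, and 484 of 727 (66.6%) had 0 in both aOL libraries. The aOL-only sites had medians of 20 and 31 in the aOL libraries, and 327 of 583 (56.1%) had 0 in both aOPC libraries. For comparison, the 2768 block sites with at least 10 counts in all 4 libraries had medians of 17, 45, 40.5 and 65 in aOPC replicates 2 and 3 and aOL replicates 2 and 3. Just at the limit, 21 sites well-read in aOPC had a highest aOL count of 3 and 14 one of 4, and in the other direction the numbers were 63 and 57. At a highest count of 7 there were 8 sites well-read in aOPC and 112 well-read in aOL.

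The sites with at least 10 counts in all libraries leave out one-population sites by construction, so their differences are bounded by that choice. Their median log2 difference, aOL minus aOPC on log2(CPM + 0.5), was -0.08 with an SD of 0.45 across sites, and 3.65% were more than 1 unit apart. In the flanks 6394 such sites had a median of -0.06, an SD of 0.38 and 1.77% beyond 1 unit. Between the 2 libraries of one population the SD across sites was 0.53 in the blocks and 0.52 in the flanks for aOPC, and 0.32 in both for aOL. Disagreement between replicates was close in blocks and flanks when pooled. A site with at least 10 counts in one aOPC library had at most 3 in the other in 16.2% of cases, against 16.5% in the flanks, and for aOL the shares were 6.51% and 6.58%. By chromosome, the aOL share was higher in the block than in its flanks on chromosomes 12 (10.5% against 8.85%), 3 (8.95% against 7.34%) and 8 (7.10% against 6.86%), and lower on chromosome 4 (4.79% against 5.61%). At 20 counts in one aOPC library and 0 in the other the pooled shares were 0.239% in the blocks and 0.181% in the flanks. As a share of each library, the blocks took 1.86% and 1.91% of the counts in aOPC and 1.63% and 1.60% in aOL, 0.857 times as much. The flanks took 3.65% and 3.75% in aOPC and 3.67% and 3.60% in aOL.

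Fitted site by site with edgeR over the whole genome, 501 of 8050 tested block sites were higher in aOL (6.22%, against 1.21% of all 443062 tested sites) and 841 lower (10.4%, against 1.08%) at an adjusted p under 0.05. Of these 1342 sites, 87.0% were one-population sites, so the calls restate the choice of the blocks. The number fell where the population with the reads was left with 1 library: 17 and 12 were called higher without aOL replicates 2 and 3, and 86 and 339 lower without aOPC replicates 2 and 3. With a library of the other population left out, 529 and 472 were called higher (without aOPC replicates 2 and 3) and 791 and 794 lower (without aOL replicates 2 and 3).

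Of the 264 genes named in the blocks, 154 had at least 1 one-population site in a promoter, exon or intron, and 69 had sites of both directions. The most were in Arhgef10l, with 22 aOPC-only and 16 aOL-only sites among 125 well-read ones (chromosome 4, 140514485 to 140666007). Igsf21, an adhesion protein of synapses, had 22 and 10 among 131, and Hspg2, the basement membrane proteoglycan perlecan, 17 and 12 among 127. Eif4g3, a translation initiation factor, had 15 aOPC-only and 2 aOL-only sites among 51, the most one-sided of the 14 genes with at least 11 one-population sites. The others of the 14 were Bcar3, Ephb2, Rap1gap, Ece1, Iffo2, Crocc, Asap2, Cnn3, Kazn and Sgcz, each with both directions, and the 14 had between 27 and 131 well-read sites.

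Summed over gene bodies, 15 of 249 tested block genes were called lower in aOL by edgeR (6.02%, against 0.687% of 18488 gene bodies) and 1 higher (0.402%, against 0.162%), again a description. Cys1 decreased by 2.79 on the log2 scale, with a standard error of 0.16, the most among the 15. It went from 50.6 and 42.0 CPM in aOPC to 6.91 and 6.50 CPM in aOL. Kdm1a had 31.9 and 30.8 CPM in aOPC against 4.71 and 5.43 CPM in aOL. Ywhaq, a 14-3-3 adaptor protein, had 44.0 and 61.4 against 11.7 and 9.54 CPM. Alg14, a subunit of the enzyme that adds the second sugar in N-glycan assembly, had 37.0 and 29.0 against 9.42 and 8.46 CPM. The others of the 10 with the smallest p were Casp9, Abca4, Usp48, Eri1, Necap2 and Cela2a, of which Casp9 and Cela2a overlap at their ends. In all of them the aOPC values lay above the aOL values.

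The sums included the one-population sites. In Kdm1a 1 site gave 56.8% and 40.3% of the aOPC counts. Left with the sites that were not one-population, the log2 ratio of mean CPM went from -1.88 to 0.16 in Alg14, from -2.63 to -1.20 in Kdm1a, from -2.79 to -1.58 in Cys1 and from -1.04 to -0.16 in Usp48. In Abca4 it went from -1.06 to -0.72, and no site of Abca4 gave more than 19.9% of the aOPC counts. By construction, leaving out aOPC-only sites raises the ratio of aOL over aOPC, and leaving out aOL-only sites lowers it. In Cela2a, with 3 sites of each direction, the log2 ratio went from -1.16 to -1.72. Its CPM went from 15.9 and 15.2 to 8.58 and 9.35 in aOPC, and from 7.28 and 6.62 to 3.01 and 2.44 in aOL. With only sites of at least 3 counts in every library, which by construction leaves out one-population sites other than those with exactly 3 counts in both libraries of the other population, no gene body of the blocks was called in either direction. The 1 gene called higher, the scavenger receptor gene Msr1, had 3 sites, and 1 of them gave 86.3% and 82.6% of the aOL counts. Its gene body had 2 and 3 counts in aOPC against 51 and 86 in aOL. It passed the filter on low counts only through aOL and gives no support for a difference. Left-out libraries moved the number called lower to 46 (without aOPC replicate 2), 64 (aOPC replicate 3) and 7 (aOL replicate 3), and the number called higher to 12, 22 and 0, and to 0 without aOL replicate 2.

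RNA was the readout that had no part in choosing the blocks. Among the 133 block genes tested with limma, 45 (33.8%) differed by more than 1 log2 unit between the population means, against 15.6% of 333 genes in the flanks and 14.5% of 10667 genes elsewhere. The median difference in either direction was 0.64 log2 units in the blocks, 0.47 in the flanks and 0.44 elsewhere. The level of the genes was similar, with a median log2 value of 10.72, 10.65 and 10.62, and so was the spread between replicates, with a median SD of 0.34, 0.30 and 0.34 in aOPC against 0.077, 0.088 and 0.083 in aOL. The share over 1 log2 unit was 43.5%, 39.1%, 30.6% and 26.7% in the blocks of chromosomes 8, 12, 4 and 3, with 23, 23, 72 and 15 genes tested. With each library left out in turn it ranged from 31.8% to 41.7% in the blocks, from 14.6% to 26.4% in the flanks, and elsewhere from 13.3% to 24.3%. The share over 1 log2 unit was chosen as a measure after the data were seen. No test compared these shares, since genes are not replicates.

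At an unadjusted p under 0.05, 24 block genes were higher in aOL (12.1% of all 11133 tested genes were) and 26 lower (12% of all), together 37.6% of the block genes. That share was 64.4% and 66.7% without aOPC replicates 2 and 3 and 22.6% and 21.8% without aOL replicates 2 and 3, where the genes outside blocks and flanks had 60.5%, 48.7%, 5.16% and 6.73%. The flanks had 29.1% with all libraries and 66.4%, 49.7%, 6.38% and 6.99% with these left out, so that without aOPC replicate 2 their share was above that of the blocks. The values of the populations did not overlap in 47 block genes that were higher (31.9% of all genes) and 49 that were lower (29.9%). After adjustment limma called 0 block genes higher (0.00898% of all genes) and 1 lower (0.0719%). The differences went both ways, and the median over the block genes was 0.035 log2 units.

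**Figure D4:**
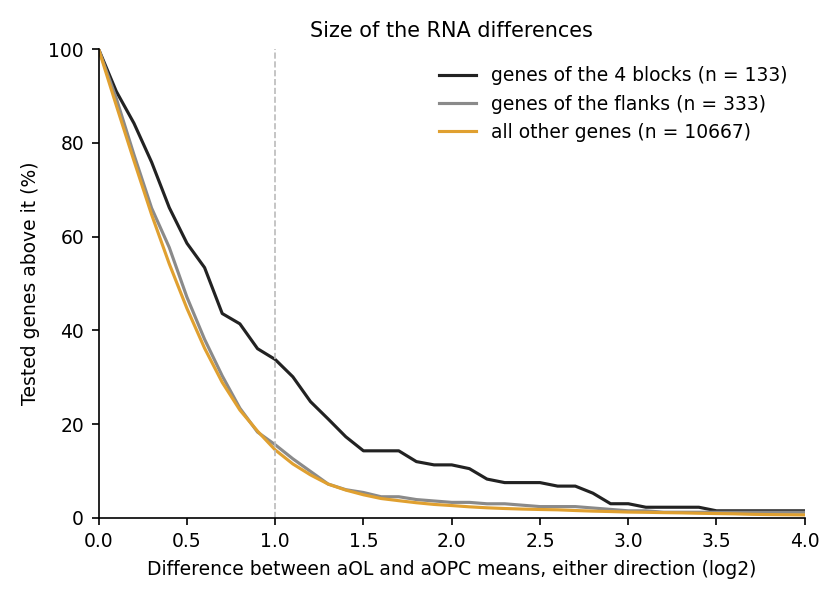
Percentage of tested genes (vertical axis) whose aOL and aOPC means differed by more than the log2 value on the horizontal axis, in either direction, for the genes of the 4 blocks, of the flanks and all others. At 1 log2 unit (dashed line) the curves stand at 33.8%, 15.6% and 14.5%.

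The called gene was Dusp26, a dual-specificity phosphatase, on chromosome 8 from 31089527 to 31097046. In aOPC replicates 2 and 3 its log2 values were 15.01 and 14.81, against 10.72 and 10.57 in aOL, a decrease of 4.27 ± 0.20 (limma, adjusted p = 0.0469). Without the filter on low values its adjusted p was 0.0581, and over all alternatives it ranged from 0.00356 to 0.0581. It had 3 well-read sites and no one-population site.

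The other 9 of the 10 largest differences without overlap were not called, with limma adjusted p between 0.078 and 0.165. Pxdn, a peroxidase of the extracellular matrix, was the only one with higher values in aOL, at 9.81 and 8.28 in aOPC against 13.31 and 13.21 in aOL, a log2 difference of 4.21 ± 0.56. Among these 10 genes only Sox11 had its aOPC replicates farther apart. Nbl1, a secreted BMP antagonist, had log2 values of 8.93 and 9.25 in aOPC against 5.07 and 6.24 in aOL. Pqlc2, a lysosomal amino acid exporter, had 10.67 and 11.56 against 8.05 and 8.09. Both lie on chromosome 4.
Padi2, which converts arginine to citrulline in proteins, had log2 values of 13.99 and 14.17 in aOPC against 11.92 and 11.70 in aOL, a difference of -2.27 ± 0.21. Mfap2, a microfibril protein, had 6.98 and 6.43 against 4.11 and 3.61. It passed the filter on low values only through aOPC and gives no support for a difference. Alpl, the tissue-nonspecific alkaline phosphatase, had 8.51 and 7.44 against 5.92 and 4.46. F3, the tissue factor that starts coagulation, had 10.32 and 9.36 against 6.91 and 7.34. Of these genes Padi2 and Alpl had 9 one-population sites each and Mfap2 none among 6 well-read sites, while F3 had no well-read site.

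**Figure D5:**
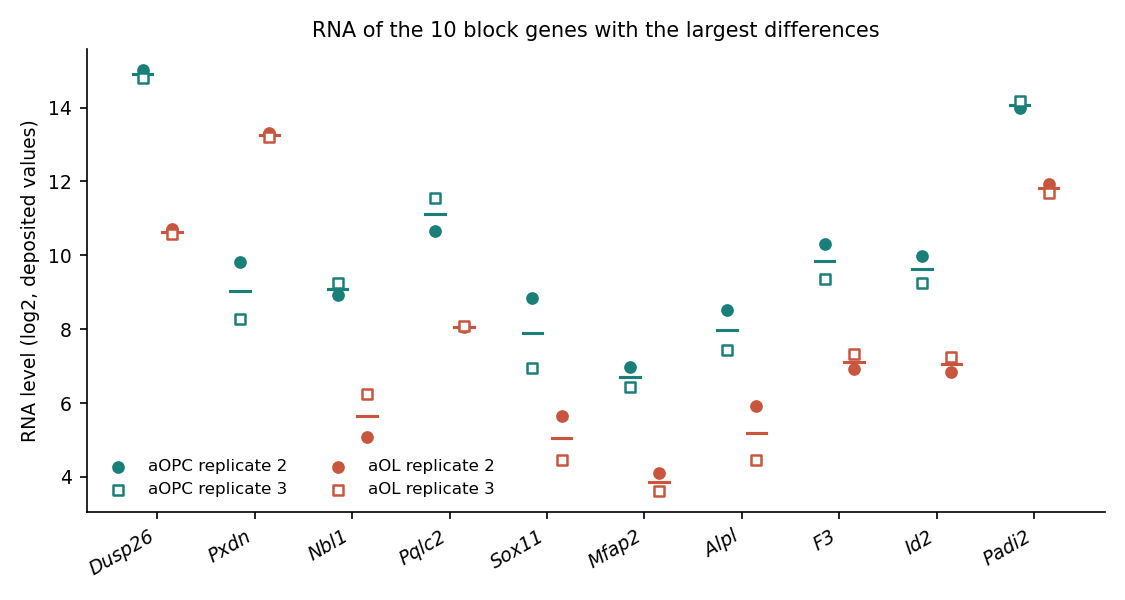
Deposited log2 RNA levels of the 10 block genes with the largest differences between populations without overlap, in each library (aOPC green, aOL red, replicate 2 filled, replicate 3 open, bars at the mean of 2). Pxdn alone is higher in aOL, and Dusp26 falls from near 15 to near 10.6. Mfap2 passed the filter on low values only through aOPC.

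RNA was also described by whether a gene had one-population sites, with no test between these groups of genes. Of 85 tested block genes with at least 1 such site in promoter, exon or intron, 34.1% were over 1 log2 unit apart, and of 48 genes without any, 33.3%. Of the 48, 12 had no well-read site and could not have a one-population site. The other 36 had 27.8% over 1 log2 unit and the 12 had 50.0%. The median difference in either direction was 0.64 and 0.62. The signed median was 0.21 in genes with such a site, where 18 were higher and 11 lower at an unadjusted p under 0.05 by limma, and -0.32 in genes without, where 6 were higher and 15 lower, 1 and 5 of them among the 12 genes with no well-read site. With those 12 left out the median was -0.39. Against these counts stand 12.1% higher and 12% lower among all tested genes. Genes with more aOPC-only than aOL-only sites had a median log2 difference of 0.22 (38 genes), and those with more aOL-only sites 0.26 (39 genes). Of the 14 genes with the most one-population sites, 10 were tested in RNA, with log2 differences from -0.69 (Ephb2) to 1.77 (Hspg2). Arhgef10l stood at 8.53 and 5.18 in aOPC against 6.32 and 6.78 in aOL, Rap1gap at 11.23 and 9.67 against 9.65 and 10.01, and Kazn at 14.52 and 14.21 against 14.18 and 14.15. Both aOL values were higher in Hspg2, at 7.41 and 7.63 in aOPC against 9.40 and 9.18 in aOL, a log2 difference of 1.77 ± 0.21 (limma, unadjusted p = 9.82e-04, adjusted p = 0.106), and in Eif4g3, at 12.60 and 11.37 against 13.16 and 13.05, a difference of 1.12 ± 0.46 (limma, unadjusted p = 0.0714). Asap2, at 9.39 and 9.18 against 10.35 and 9.99, differed by 0.88 ± 0.23 (limma, unadjusted p = 0.0181, adjusted p = 0.159). Kdm1a, Ywhaq and Alg14, with the lower gene body counts, had log2 RNA differences of 0.23, -0.039 and 0.36. Over all gene bodies called lower and tested in RNA, these differences ranged from -0.80 (Sdhb) to 1.13 (Zbtb40).

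For the lists by function, the shares among all tested genes are 12.1% higher and 12% lower at an unadjusted p under 0.05, and 31.9% higher and 29.9% lower without overlap. Of 15 tested transcription and chromatin genes of the blocks, 4 were higher and 3 lower at an unadjusted p under 0.05, 9 and 3 did not overlap, and none was called by limma after adjustment. Their median log2 difference was 0.34, where the median of all genes was 0.023. The lower ones were Id2 and Id3, which block basic helix-loop-helix factors, and Sox11, a factor of immature neural cells. Id2 was at 9.99 and 9.26 in aOPC against 6.85 and 7.24 in aOL, Id3 at 9.42 and 9.70 against 8.09 and 8.45, and Sox11 at 8.85 and 6.96 against 5.66 and 4.46. No site at Id2, Id3 or Sox11 was well-read. Among the higher ones was Zbtb40, a zinc finger protein, at 8.53 and 8.69 in aOPC against 9.90 and 9.59 in aOL, with 5 one-population sites among 28 well-read ones. Its gene body counts went the other way and were called lower in aOL, by 0.75 on the log2 scale (edgeR).

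The other lists had few measured members, too few to set 1 or 2 genes against those shares. Of 7 tested genes of mitochondria, redox and metabolism, 0 were higher and 2 lower at an unadjusted p under 0.05. Sdhb, a subunit of succinate dehydrogenase, was at 13.30 and 13.45 against 12.45 and 12.70, and Akr7a5, an aldehyde reductase, at 12.08 and 13.08 against 10.88 and 10.85. Of 5 tested genes of lipid and membrane metabolism, 1 was higher (Leprotl1) and 1 lower (Alpl). Of the growth factor, receptor and adhesion list 2 of 10 genes had RNA values, Hspg2 and Ephb2, and of these only Hspg2 passed p under 0.05.

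The immune and complement genes had 5 tested members and none at an unadjusted p under 0.05 by limma. C1qa, C1qb and C1qc, the subunits of complement C1q made by microglia, had log2 differences of -0.51, -1.13 and -1.37. The 9 measured microglia markers, these 3 included, had a median of -0.54 with 1 lower at an unadjusted p under 0.05, and their summed level was 11.90 and 10.64 in aOPC against 11.20 and 10.63 in aOL (log2). The 8 astrocyte markers had a median of -0.68 and 1 lower, with summed levels of 14.86 and 13.98 against 13.94 and 14.17. Their part in the RNA differences of the blocks was not tested.

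The 10 progenitor markers tested had a median log2 difference of -0.18. At an unadjusted p under 0.05 by limma 2 were lower in aOL and none higher, and both of these, Neu4 and Vcan, passed the filter on low values only through aOPC and give no support for a difference. Neu4, a sialidase, stood at 9.90 and 7.07 in aOPC against 3.03 and 3.61 in aOL. Vcan, the proteoglycan versican, stood at 8.87 and 5.27 against 2.49 and 3.24. The 10 oligodendrocyte markers, 4 of them lower in aOL at an unadjusted p under 0.05, had summed log2 levels of 22.62 and 22.42 in aOPC against 22.55 and 22.59 in aOL, so the cells labelled as progenitors held oligodendrocyte RNA at the level of the aOL. Pdgfra stood at 7.54 and 5.47 in aOPC against 4.98 and 1.63 in aOL. Of 3 tested endothelial markers 2, Kdr and Cldn5, were higher in aOL at an unadjusted p under 0.05 by limma. The tight junction gene Cldn5, at 0.33 and 1.80 in aOPC against 5.92 and 7.13 in aOL, passed the filter only through aOL. Kdr, a receptor for VEGF, stood at 9.07 and 9.36 against 9.73 and 10.07, and of 4 tested neuron markers 1 was lower. The aOPC RRHP libraries held 7113237 and 17121440 counts and the aOL libraries 15923775 and 27057859, where 3 counts are between 0.111 and 0.422 CPM. The RNA files held log2 values without read counts. The study states mapped read totals for these libraries, which were not used here, and the counts behind single RNA values were not analysed here.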

How the data were processed

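The authors sorted aOPC and aOL and deposited RRHP read counts per CpG site and strand, raw and aligned to mm10, with promoter, exon, intron and CpG island columns. They also deposited log2 expression values per gene. Per the study's methods RNA reads were aligned with BWA and normalized with DESeq2, and the labels name DESeq2 1.2.5. The study paired promoters with sites from 2 kb before to 500 bases after the transcription start. The RRHP aligner and the treatment of duplicates are not given in the sources used here. A site missing from a table was given 0. Positions are 1-based. Replicates 2 and 3 were compared, and replicate 1 was not analysed here.

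Sites with at least 10 counts in at least 2 libraries, and gene body sums after filterByExpr, were tested with edgeR 4.0.16 (quasi-likelihood, TMM), and DESeq2 1.42.0 was an alternative. Genes whose RNA reached a log2 value of 5 in 2 or more libraries were tested with limma 3.58.1, called at p under 0.01 and a Benjamini-Hochberg adjusted p under 0.05. Each test ran over the whole genome and was tested on simulated data. The study calls its replicates biological, but the labels tie no library to an animal, so p-values measure the spread between these samples. Gene coordinates came from RefSeq (GRCm38), for 261 of 264 genes. R 4.3.3, Python 3.11.15 and matplotlib 3.10.9 were used.

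The blocks, the gene lists and the tests were chosen with earlier results of these data known. The genes named are those called in RNA, the 10 called gene bodies of smallest p, those with the most one-population sites (12, with ties 14), the 10 largest RNA differences without overlap, and members of the lists, of which 1 is not reported here. The sites named are the 2 per block and direction with the highest count in the lower library of the population with reads.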

Additional observations from a re-analysis of the deposited data

How the results depend on the processing

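Results with fewer or other libraries, filters and tools are given as the value reported and its alternatives. The one-population share of the blocks (18.0%) was 13.8% at 20 counts in place of 10, 11.1% with 0 counts required in the other population and 22.0% after thinning to the smallest library, and 18.7% to 30.4% with each library left out. In the flanks (5.54%) it was 3.37%, 2.82% and, with libraries left out, 6.28% to 20.4%. Of block sites called by edgeR (501 higher, 841 lower), 11 and 25 remained in number with 10 counts in every library, a filter that removes one-population sites by construction, and 1472 were lower at a filter of 5 counts. Leaving out libraries gave 12 to 529 higher and 86 to 794 lower. Gene bodies (1 higher, 15 lower) were 3 and 32 by DESeq2, 2 higher without the filter, 0 and 0 with sites of at least 3 counts in every library, where Alg14 turned to a log2 fold change of 0.36, and 0 to 22 higher and 7 to 64 lower with libraries left out. For RNA, 0 and 1 block genes were called, 0 lower without the filter, and 1 to 32 higher and 3 to 24 lower with libraries left out (12 to 47 and 14 to 41 at an unadjusted p under 0.05, or 21.8% to 66.7% of the tested genes). With a library left out, the lone sample is assumed to vary like the other population. The share of block genes over 1 log2 unit apart (33.8%), a measure chosen after seeing the data, was 31.8% to 41.7% with libraries left out. Where no construction is named, the cause was not tested.

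The replicate block, which takes the same-numbered libraries as paired, gave 565 and 880 sites, 2 and 15 gene bodies and 1 and 6 RNA calls (higher and lower). Same-numbered libraries came from different animals and shared only a number: the differences between replicates 2 and 3 correlated at -0.08 across sites and -0.074 across genes between the populations.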
